A study of Mus musculus with 12 samples.

Results

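The Rab GTPases, the family of small GTPases that direct membrane traffic, were taken here as every gene whose symbol is Rab followed by a number and at most 1 letter, so Rab-binding proteins are not members. The array carried matched probes for 55 such genes. Of these, 47 had a probe well above background on all 3 arrays of at least 1 time group, among 18417 genes measured in all. The 47 measured genes were covered by 76 such probes, and the brightest probe stood for its gene. The other 8 genes, Rab3b, Rab3c, Rab6b, Rab9b, Rab25, Rab27b, Rab39b and Rab40b, did not pass in any group and are not described further. Just inside that limit, Rab17 was well above background on 2 of 3 arrays at 0 h, 1 at 6 h and 3 at 12 h, and just outside it Rab25 was so on 2 of 3 arrays labelled 24 h and on at most 1 in any other group. Choosing members by name used no measured change, and the filter lets a gene pass through any of the 4 groups.

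Rab proteins mark the membranes of the cell: each sits on its own set of compartments in its GTP-bound form and there recruits effectors, the tethers, motors and coat adaptors that move, dock and fuse vesicles. Exchange factors (GEFs) load a Rab with GTP, GTPase activating proteins (GAPs) switch it off, and GDP dissociation inhibitors take the lipid-anchored, GDP-bound protein off the membrane. In dendritic cells, Rab proteins steer the uptake and maturation of phagosomes, the traffic of Toll-like receptors and MHC molecules, and the secretion of cytokines.

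The cells were dendritic cells grown from the bone marrow of female mice aged 6 to 8 weeks with the growth factor GM-CSF at 20 ng/ml and harvested as immature cells on day 7. They were exposed to 300 µg/ml of γ-PGA NPs, particles of the biodegradable polymer poly(γ-glutamic acid), and the groups were labelled 0 h (the start), 6 h, 12 h and 24 h. Each group held 3 samples, described by the submitters as independent experiments, and each sample was hybridised to 1 single-colour Agilent array. No strain, transgene or deletion is named in the labels. No culture kept without particles for 6, 12 or 24 h is among the samples, so exposure and time in culture cannot be told apart. In such bulk RNA, fewer cells of a type and less RNA per cell cannot be told apart either.

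Each gene had values from 2 sources. The scanner values are processed spot intensities, given here as log2 levels relative to the 75th percentile of the array, which ranged from 338.6 to 472.3 intensity units. The authors' value table gives each probe as a linear ratio, with the median of the 0 h columns set to 1. The sources did not match at 24 h: over all genes the scanner arrays labelled 24 h correlated with those labelled 0 h at a mean r of 0.991, against 0.923 with 6 h and 0.91 with 12 h, while the value table columns labelled 24 h correlated with 12 h at 0.896. Values at 24 h are therefore given for each source apart, and every count at 6 and 12 h was the same when the samples labelled 24 h were left out of the fit. The arrays lay on 3 slides: all of 0 h beside 6 h replicate 1 on the first, the other 6 h arrays beside 12 h replicates 1 and 2 on the second, and 12 h replicate 3 beside all arrays labelled 24 h on the third. The defining markers of dendritic cells were present, with 9 of 9 listed genes above background on every array at 0 h and 7 or 8 of 9 at 6 and 12 h. The summed linear level of that list, in units of the array's 75th percentile, ranged from 613 to 636 at 0 h, from 608 to 680 at 6 h and from 650 to 716 at 12 h. Its genes went different ways. Itgax, H2-Aa and Cd209a were lower at both later times than at 0 h, while H2-Ab1, H2-Eb1, Cd74, Zbtb46 and Ciita were higher at both. Flt3 was higher at 6 h and lower at 12 h. Cd209a had mean log2 levels of -2.23 at 0 h, -5.42 at 6 h and -5.49 at 12 h, and was above background on no array at 6 or 12 h. The 8 granulocyte precursor markers were all above background in every group, and their summed level ranged from 83.7 to 84.5 at 0 h, from 86.4 to 98.2 at 6 h and from 127 to 147 at 12 h. These 8 did not move together: the mean log2 level of Lcn2, which activated cells also make, was 2.08 at 0 h, 4.75 at 6 h and 5.31 at 12 h, and those of Ngp and Camp were also higher at both later times than at 0 h, while Elane, Mpo, Prtn3, Ctsg and Ltf were lower at both. Ltf, for example, had mean log2 levels of 4.93 at 0 h, 3.85 at 6 h and 4.51 at 12 h. The 5 macrophage markers on the array were also all above background, with a summed level of 116 at 0 h, 129 to 144 at 6 h and 142 to 157 at 12 h. Summed levels of the mast cell and basophil list ranged from 1.32 to 1.40 at 0 h, from 1.39 to 1.88 at 6 h and from 1.66 to 1.71 at 12 h, and those of the B cell list and the T and NK cell list stayed under 1 on every array. Erythroid markers were not above background on any array at 0 or 6 h. The part of such cells in the Rab changes was not tested.

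At 6 h, most of the 47 Rab genes differed from 0 h by less than 2-fold, while smaller groups were called higher or lower. By the brightest probe of each gene, 10 passed the threshold in the same direction in both sources, or 21.3% against 14.5% of all genes. Rab10, Rab12, Rab1a, Rab20, Rab30, Rab33a and Rab8b were higher at 6 h than at 0 h, and Rab19, Rab39 and Rab3a were lower. The scanner call of Rab1a at 6 h rests on 1 array, and its other probe, measured on every array, was not called. All but Rab33a passed the threshold in both sources again at 12 h, which made 19.1% of the members, against 12.7% of all genes. Rab7b alone was called in opposite directions, lower in the scanner values and higher in the value table at both times. Called or not, 38 of 47 members had the same sign in both sources at 6 h and 37 at 12 h. That count was not made over all genes. The log2 changes of the sources correlated over all genes at r 0.729 at 6 h and 0.538 at 12 h. Among the Rab genes r was 0.812 and 0.721.

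In the scanner values at 6 h, 7 of 47 Rab genes were called higher, against 10.2% of all genes, and 7 were called lower, against 15.9% of all genes. A gene was called where limma, fitted to all genes, gave a Benjamini-Hochberg adjusted p under 0.05 together with a difference of 2-fold or more. The members called in either direction came to 29.8%, close to the 26.1% of all genes. At 12 h, 8 were higher and 5 lower than at 0 h in the scanner values, against 13.7% and 16.9% of all genes, or 30.6% either way. Between 12 h and 6 h, 3 were higher and 0 lower (against 4.88% and 2.1% of all genes), and limma at an adjusted p under 0.05 with no minimum fold put 25 higher and 2 lower there, against 26.2% and 21.2%. Counted with no minimum fold, 26 rose and 15 fell at 6 h in the scanner values, against 32.1% and 39.6% of all genes, and 29 rose and 12 fell at 12 h, against 36.2% and 39.4%. Within the first slide, which held the 0 h arrays and 6 h replicate 1, 7 members were called higher and 8 lower at 6 h, but the single 6 h array there has no spread of its own and was assumed to vary like the 0 h arrays. Within the second slide, 2 were higher and 0 lower at 12 h against 6 h. No slide held both 0 h and 12 h, and with the slide as a block the counts at 12 h were 8 higher and 6 lower. The shares of all genes called within a slide or with the slide as a block were not counted. The median log2 change of the members was 0.33 at 6 h and 0.34 at 12 h, against -0.06 and -0.03 over all genes.

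The value table called 10 Rab genes higher and 5 lower at 6 h, against 13.3% and 11.8% of all genes, or 25% either way. It called 16 higher and 5 lower at 12 h, against 15.7% and 12.1% of all genes. With no minimum fold the table had 28 higher and 12 lower at 6 h, against 40.9% and 30.3% of all genes, and 33 higher and 10 lower at 12 h, against 47.1% and 26.8%. The members called either way at 12 h came to 44.7%, against 27.8% of all genes. The median log2 change of the members in the table was 0.42 at 6 h and 0.62 at 12 h, on a scale on which the median over all genes stood at 0.14 and 0.22. With the median of all genes subtracted from each column, the split at 12 h was 11 higher and 7 lower, and after quantile normalization of the columns it was 6 and 4. Quantile normalization also moved the split at 6 h to 4 higher and 4 lower. The shares of all genes called under these alternatives were not counted, and the shares above do not apply to them. The calls of Rab12 (log2 0.97), Rab1a (0.96) and Rab33a (0.50) at 6 h did not pass in the table so normalized, nor did Rab30 (1.26, adjusted p 0.057 in limma). With the median subtracted, Rab33a (0.95) and Rab1a (1.00) did not pass in the table at 12 h. In the scanner values, normexp background correction moved the split at 12 h to 8 higher and 2 lower, again with no share of all genes counted. Of the members called at 6 h, the 10 called alike made up 71.4% of the scanner calls and 66.7% of the table calls. The same shares over all genes were 55.5% and 57.8%. At 12 h the members called alike made up 69.2% of the scanner calls and 42.9% of the table calls, against 41.6% and 45.8% over all genes.

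**Figure D1:**
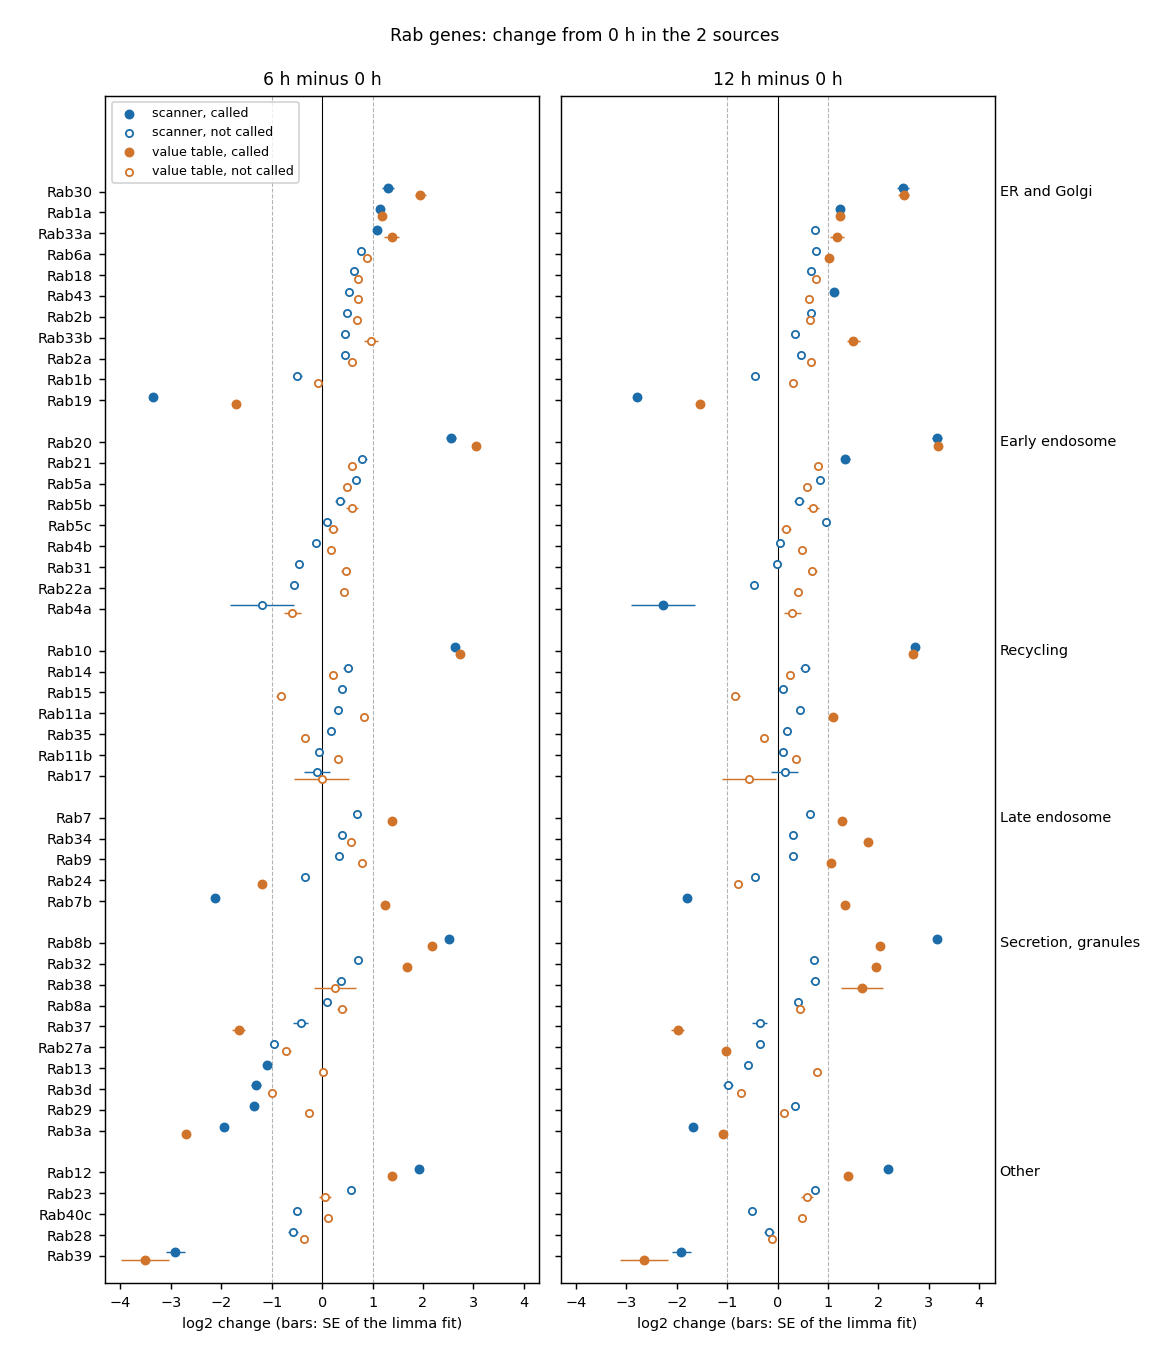
Log2 change of each of the 47 measured Rab genes at 6 h and 12 h minus 0 h, from the scanner values and the value table, grouped by the compartment each Rab is known for. Filled points passed the threshold in that source and bars are the SE of the limma fit. In the scanner values Rab20, Rab10 and Rab8b lie farthest to the right in both panels. Rab19, Rab39 and Rab3a lie to the left in both sources, and the 2 points of Rab7b stand on opposite sides of 0. The scanner points of Rab39 at 6 h and of Rab4a at 12 h rest on signals not well above background.

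Among the Rab proteins of the endoplasmic reticulum and Golgi, 3 of 11 measured members rose and 1 fell by the scanner at 6 h, against 10.2% and 15.9% of all genes, and the value table gave the same counts, against 13.3% and 11.8%. Rab30, a Rab of the Golgi apparatus, had scanner log2 levels of -3.04, -3.09 and -2.71 at 0 h, -1.52, -1.72 and -1.68 at 6 h and -0.55, -0.35 and -0.50 at 12 h. The 3 groups did not overlap, and the level stepped up at each time. This was a log2 change of 1.31 ± 0.12 (SE, n = 3 per group) at 6 h with an adjusted p of 3.38e-06, and of 2.48 ± 0.12 at 12 h with an adjusted p of 1.89e-08. Rab30 was also higher at 12 h than at 6 h, by 2.26-fold. Rab30 had table ratios of 1.18, 1.00 and 0.969 at 0 h, 4.34, 3.80 and 3.98 at 6 h and 6.06, 6.67 and 5.12 at 12 h, a log2 change of 1.95 and 2.50 at 6 and 12 h. Under normexp background correction its scanner change at 6 h was 0.62, below the threshold.

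Rab1a carries vesicles out of the endoplasmic reticulum to the Golgi. Its brightest probe had scanner log2 levels of 4.88, 4.88 and 4.88 at 0 h, but outlier spots left only 1 array at 6 h, with a level of 6.02, and only 2 arrays at 12 h, with 6.10 and 6.12. All of these later values lay above the 3 at 0 h. The scanner log2 change was 1.14 ± 0.05 at 6 h (adjusted p 1.07e-06, limma, 1 array against 3, with the spread taken from the other groups) and 1.23 ± 0.04 at 12 h. Without 6 h replicate 1 this probe has no value at 6 h. The other Rab1a probe, measured on every array, changed by 0.77 at 6 h and 0.48 at 12 h and was not called. The value table had a Rab1a ratio for every sample, also for those whose scanner spot was flagged as an outlier. These ratios were 1.00, 0.931 and 1.03 at 0 h, 2.42, 2.23 and 2.12 at 6 h and 2.35, 2.44 and 2.16 at 12 h. Both changes of Rab1a were called in the table, with log2 values of 1.19 and 1.23. Quantile normalization of the scanner values put Rab1a under 2-fold, at 0.81 at 6 h and 0.77 at 12 h.

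Rab33a, a Golgi Rab whose close relative Rab33b binds the autophagy protein Atg16l1, was called at 6 h in both sources. In the scanner values the log2 levels of Rab33a were -1.69, -1.62 and -1.85 at 0 h, -0.60, -0.63 and -0.65 at 6 h and -1.09, -0.98 and -0.85 at 12 h. Both later groups lay above the arrays at 0 h, with the higher values at 6 h. The log2 change was 1.09 ± 0.07 at 6 h (adjusted p 2.53e-07) and 0.75 ± 0.07 at 12 h, where it was under 2-fold. Normexp correction left 0.85 at 6 h, not called. Table ratios of Rab33a were 1.00, 0.970 and 1.24 at 0 h, 2.97, 2.51 and 2.82 at 6 h and 2.00, 2.39 and 2.95 at 12 h.

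Rab19, a little-studied Rab placed at the Golgi, had the most negative measured scanner change of the 47 members at 6 h. On the 3 arrays of each time, the scanner log2 levels of Rab19 were 2.73, 2.69 and 2.67 at 0 h, -0.63, -0.75 and -0.60 at 6 h and -0.08, -0.11 and -0.10 at 12 h. Every array at 6 and 12 h lay far below every array at 0 h, and those at 6 h were the lowest. The level was 10.2-fold lower at 6 h (log2 change -3.36 ± 0.05, adjusted p 8.27e-12) and 6.95-fold lower at 12 h. In the value table the ratio was 1.00, 0.944 and 1.02 at 0 h, 0.337, 0.297 and 0.274 at 6 h and 0.349, 0.342 and 0.330 at 12 h, a smaller but same-sided log2 change of -1.71 and -1.54. The Rab19 promoter window is shown because it is the only one among 40 Rab genes that matched the interferon response element, written as GAAA, any 2 bases, GAAA. Sequences here are the 250 bases before and the first 50 bases from the RefSeq start in build GRCm38.p6, 5′ to 3′ on the gene's strand. The Rab19 window lies at chr6:39381103-39381402, plus strand, and capitals mark 2 matches of the element on the opposite strand, which share 4 bases.
Rab19: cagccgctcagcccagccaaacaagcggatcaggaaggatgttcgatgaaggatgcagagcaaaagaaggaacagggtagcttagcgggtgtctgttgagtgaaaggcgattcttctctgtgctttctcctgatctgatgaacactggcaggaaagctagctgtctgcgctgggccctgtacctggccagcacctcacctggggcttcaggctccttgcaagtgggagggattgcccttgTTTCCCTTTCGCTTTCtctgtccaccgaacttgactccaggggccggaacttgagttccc
The element was present in 3.99% of 27018 genes with such a window, and a match is only a match of letters.

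None of the other 7 Golgi and endoplasmic reticulum members was called in the same direction by both sources through its brightest probe. Rab43, which takes part in the cross-presentation of cell-associated antigen by mouse dendritic cells, had scanner log2 levels of -0.45, -0.43 and -0.61 at 0 h, 0.06, -0.05 and 0.11 at 6 h and 0.58, 0.61 and 0.70 at 12 h. Each later group lay above the arrays at 0 h, and the rise passed 2-fold only at 12 h (log2 change 1.13 ± 0.06, adjusted p 5.14e-08). In the value table, Rab43 had ratios of 0.955, 1.02 and 1.00 at 0 h, 1.68, 1.57 and 1.63 at 6 h and 1.58, 1.51 and 1.50 at 12 h, under 2-fold throughout. Averaged over its 4 probes, the scanner change of Rab43 at 12 h was 0.77 and was not called. Rab2a, which acts between the Golgi and the endoplasmic reticulum, was not called. It had scanner log2 levels of 5.03, 5.04 and 5.03 at 0 h, 5.53, 5.41 and 5.49 at 6 h and 5.50, 5.56 and 5.43 at 12 h. Both later groups lay above 0 h, with a log2 change of 0.44 ± 0.04 at 6 h and an adjusted p of 6.24e-06. Table ratios of Rab2a were 1.00, 0.933 and 1.00 at 0 h, 1.54, 1.43 and 1.43 at 6 h and 1.64, 1.59 and 1.44 at 12 h. Rab2b, Rab6a of retrograde Golgi traffic, Rab18 of lipid droplets and Rab33b also had positive scanner log2 changes at 6 h, of 0.50, 0.78, 0.64 and 0.46, all under 2-fold. Rab1b, the close relative of Rab1a, had a scanner log2 change of -0.49. The value table called Rab33b and Rab6a higher at 12 h, with log2 changes of 1.50 and 1.02, where the scanner gave 0.34 and 0.76.

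Of 9 measured Rab genes of the early endosome and uptake, Rab20 was the only one that both sources called at 6 or 12 h through its brightest probe. Rab20 sits on early endosomes and phagosomes and acts in phagosome maturation in macrophages. Its scanner log2 levels were 0.39, 0.42 and 0.42 at 0 h, 2.99, 2.91 and 2.97 at 6 h and 3.39, 3.85 and 3.47 at 12 h. The arrays at 6 and 12 h lay far above those at 0 h, and those at 12 h above those at 6 h. The level was 5.84-fold higher at 6 h (log2 change 2.55 ± 0.10, adjusted p 4.76e-09) and 8.96-fold higher at 12 h (log2 change 3.16 ± 0.10, adjusted p 7.28e-10). Table ratios of Rab20 were 1.12, 0.978 and 1.00 at 0 h, 8.69, 8.62 and 8.17 at 6 h and 9.44, 9.66 and 8.95 at 12 h. The Rab20 promoter window, at chr8:11478591-11478890, minus strand, is shown for its E-box CACGTG, in capitals. That palindrome was matched in 6 of 40 Rab genes and in 8.09% of all genes with a window.
Rab20: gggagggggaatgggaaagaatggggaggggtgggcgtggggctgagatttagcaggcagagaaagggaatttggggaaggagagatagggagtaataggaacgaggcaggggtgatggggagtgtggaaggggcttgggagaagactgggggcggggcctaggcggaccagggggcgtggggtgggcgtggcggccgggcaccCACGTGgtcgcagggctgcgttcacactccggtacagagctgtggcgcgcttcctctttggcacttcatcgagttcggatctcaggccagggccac

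Rab21, which carries integrins through early endosomes, rose past 2-fold in the scanner values at 12 h. Scanner log2 levels of Rab21 were 1.72, 1.75 and 1.73 at 0 h, 2.60, 2.47 and 2.51 at 6 h and 2.97, 3.32 and 2.94 at 12 h, and the 3 groups did not overlap. The log2 change was 0.79 ± 0.09 at 6 h and 1.34 ± 0.09 at 12 h, with an adjusted p of 2.76e-07 at 12 h. Its table ratios were 1.15, 1.00 and 0.992 at 0 h, 1.65, 1.58 and 1.47 at 6 h and 1.87, 1.85 and 1.72 at 12 h, a rise in the same direction under 2-fold. The other Rab21 probe was called higher at 12 h in both sources, at 1.10 by the scanner and 1.02 by the table. Rab5a, Rab5b and Rab5c, which drive the fusion of early endosomes, had scanner log2 changes of 0.67, 0.35 and 0.09 at 6 h and of 0.84, 0.42 and 0.97 at 12 h. None of the 3 was called in either source at these times. Rab5c had scanner log2 levels of 4.86, 4.93 and 4.96 at 0 h, 4.94, 5.03 and 5.06 at 6 h and 5.86, 5.90 and 5.90 at 12 h, close together at 0 and 6 h and higher at 12 h. Its table ratios of 0.862, 1.01 and 1.00 at 0 h, 1.05, 1.09 and 1.18 at 6 h and 0.993, 1.07 and 1.15 at 12 h show no such step. With the median of all genes in place of the 75th percentile, its scanner change at 12 h was 1.10 and was called.

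Rab4a, which returns receptors from early endosomes to the surface, was dim. Its scanner log2 levels were -3.09, -3.03 and -3.15 at 0 h, -5.95, -2.59 and -4.29 at 6 h and -5.54, -5.49 and -5.03 at 12 h. At 6 h, replicate 2 lay above every array at 0 h while replicate 1 lay far below them, and at 12 h the probe was not well above background on any array. By these values Rab4a was 4.82-fold lower at 12 h than at 0 h (adjusted p 0.00852, limma). That estimate rests on 12 h signals not well above background. The scanner change at 6 h was -1.19 ± 0.64 and was not called. Replicate 1, the lowest, was not well above background. Without 6 h replicate 2 the change was -2.03 and passed the threshold. The value table gave Rab4a ratios of 0.740, 1.02 and 1.00 at 0 h, 0.514, 0.783 and 0.550 at 6 h and 1.03, 1.22 and 1.10 at 12 h, with no call. Its relative Rab4b had log2 changes of -0.13 and 0.05 in the scanner values at 6 and 12 h. Rab31, which links the Golgi to endosomes, had -0.47 and -0.02 in the scanner values. Rab22a, of the path between early and recycling endosomes, depended on the probe, as described with the probes.

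Among 7 recycling Rab genes, Rab10 was the only one that both sources called at 6 or 12 h, with any of its probes. Rab10 returns cargo to the plasma membrane and, in mouse macrophages, brings the endotoxin receptor Tlr4 to the surface. Its scanner log2 levels were 2.39, 2.37 and 2.41 at 0 h, 5.04, 4.96 and 5.09 at 6 h and 5.10, 5.17 and 5.09 at 12 h. The arrays at 6 and 12 h lay close together and far above those at 0 h. Rab10 was 6.23-fold higher at 6 h (log2 change 2.64 ± 0.04, adjusted p 1.44e-11) and 6.64-fold higher at 12 h (adjusted p 7.91e-12). Its table ratios were 1.00, 0.951 and 1.00 at 0 h, 6.87, 6.48 and 6.28 at 6 h and 6.46, 6.42 and 6.10 at 12 h, a log2 change of 2.73 and 2.68, close to the scanner's. All 3 Rab10 probes were called higher in both sources at both times, between 1.59 and 2.64 at 6 h in the scanner values. The Rab10 promoter window, at chr12:3309920-3310219, minus strand, is shown as an example of the CCAAT box, in capitals, which 22 of 40 Rab genes and 41.1% of all genes with a window held on either strand.
Rab10: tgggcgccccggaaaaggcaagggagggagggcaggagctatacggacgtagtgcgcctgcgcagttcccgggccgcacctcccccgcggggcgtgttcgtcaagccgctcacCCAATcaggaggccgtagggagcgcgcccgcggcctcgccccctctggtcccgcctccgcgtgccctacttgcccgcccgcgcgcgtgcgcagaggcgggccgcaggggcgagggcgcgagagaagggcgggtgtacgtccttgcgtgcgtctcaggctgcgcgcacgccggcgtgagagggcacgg

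The other recycling members stayed under 2-fold in the scanner values. Rab11a and Rab11b of the recycling endosome had scanner log2 changes of 0.31 and -0.06 at 6 h, Rab14 had 0.51, and Rab15, known from recycling in nerve cells, had 0.40. The table put Rab15 on the other side of 0, at -0.83 ± 0.09 at 6 h (adjusted p 1.17e-05, limma) and -0.84 at 12 h, under 2-fold. Rab17, known from transcytosis in epithelia, had -0.10. Through the brightest probes, only Rab11a of these was called in the value table, at 12 h, with a log2 change of 1.10. Rab35 of fast endocytic recycling, also not called, had scanner log2 levels of 4.78, 4.76 and 4.79 at 0 h, 4.98, 4.88 and 4.98 at 6 h and 4.96, 5.04 and 4.90 at 12 h. Its table ratios were 1.00, 0.923 and 1.03 at 0 h, 0.849, 0.762 and 0.721 at 6 h and 0.832, 0.850 and 0.776 at 12 h. The sources thus also placed Rab35 on opposite sides of 0, with log2 changes of 0.17 by the scanner and -0.34 by the table at 6 h.

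The late endosome and lysosome group held Rab7b, which the sources called in opposite directions. Rab7b acts at late endosomes and in macrophages sends Tlr4 and Tlr9 towards lysosomal breakdown. By the scanner its log2 levels were 3.18, 3.22 and 3.14 at 0 h, 1.10, 0.94 and 1.11 at 6 h and 1.38, 1.36 and 1.38 at 12 h. By the table its ratios were 1.00, 0.972 and 1.05 at 0 h, 2.60, 2.40 and 2.18 at 6 h and 2.61, 2.59 and 2.42 at 12 h. The groups at 6 and 12 h lay wholly below 0 h in 1 source and wholly above it in the other. The log2 change at 6 h was -2.13 ± 0.05 by the scanner (adjusted p 1.81e-10) and 1.25 ± 0.07 by the table (adjusted p 8.02e-08), and at 12 h it was -1.81 and 1.33. Over all genes, 84 were called in opposite directions by the sources at 6 h and 295 at 12 h. Quantile normalization of the table brought the Rab7b rise under 2-fold, to 0.84 at 6 h. Only 1 Rab7b probe was on the array, so no second probe bears on its direction.

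Rab7, the main Rab of transport to lysosomes, had scanner log2 changes of 0.69 at 6 h and 0.63 at 12 h, against table changes of 1.38 and 1.28, which were called. Rab34, which acts in phagosome maturation, and Rab9, which returns cargo from late endosomes to the Golgi, followed the same pattern at 12 h: 0.31 and 0.30 by the scanner, 1.79 and 1.06 by the table, with a call only in the table. Rab24, a Rab linked to autophagy, was called lower at 6 h by the table alone, with a log2 change of -1.19, where the scanner gave -0.34. In this group of 5, the table thus called 4 members higher at 12 h, against 15.7% of all genes, and the scanner 0, against 13.7%.

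Rab genes of secretion, granules and lysosome-related organelles moved in both directions. At 6 h the scanner called 1 of 10 higher and 4 lower, against 10.2% and 15.9% of all genes. The value table called 2 higher and 2 lower, against 13.3% and 11.8%. Rab8b, which carries vesicles from the Golgi to the plasma membrane, was the riser that both sources shared. Its scanner log2 levels were 1.09, 1.08 and 1.13 at 0 h, 3.69, 3.57 and 3.61 at 6 h and 4.25, 4.31 and 4.20 at 12 h. The 3 groups did not overlap and the highest values were at 12 h. Rab8b was 5.74-fold higher at 6 h (log2 change 2.52 ± 0.04, adjusted p 2.44e-11) and 8.90-fold higher at 12 h (log2 change 3.15 ± 0.04). The table ratios of Rab8b were 1.00, 0.995 and 1.10 at 0 h, 5.15, 4.40 and 4.41 at 6 h and 4.36, 4.39 and 3.90 at 12 h, about level between 6 and 12 h. All 3 Rab8b probes were called higher in both sources at both times. Rab8a, its close relative with a similar role, had scanner log2 changes of 0.09 at 6 h and 0.41 at 12 h and was not called in either source. The Rab8b window, at chr9:66919656-66919955, minus strand, is shown because it holds 2 of the motifs searched, in capitals: the antioxidant response element TGACNNNGC, present in 7 of 40 Rab genes and 14% of all genes with a window, and a CCAAT box on the opposite strand.
Rab8b: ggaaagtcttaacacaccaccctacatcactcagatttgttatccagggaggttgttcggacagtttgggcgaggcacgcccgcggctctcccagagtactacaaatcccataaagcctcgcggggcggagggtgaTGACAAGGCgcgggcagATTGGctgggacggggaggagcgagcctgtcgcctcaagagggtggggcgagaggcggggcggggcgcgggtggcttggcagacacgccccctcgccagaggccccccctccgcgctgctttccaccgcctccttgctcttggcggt

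Rab3a, known from the release of synaptic vesicles and other regulated secretion, fell. By the scanner, the log2 levels of Rab3a were -1.17, -1.11 and -1.13 at 0 h, -2.97 and -3.18 on the 2 arrays with a usable spot at 6 h and -2.76, -2.83 and -2.83 at 12 h. Both later groups lay below every array at 0 h. Rab3a was 3.84-fold lower at 6 h (log2 change -1.94 ± 0.07, adjusted p 1.8e-08) and 3.19-fold lower at 12 h, where normexp correction left a change of -0.81, under the threshold. The table ratios of Rab3a were 0.987, 1.00 and 1.10 at 0 h, 0.171, 0.147 and 0.154 at 6 h and 0.476, 0.508 and 0.474 at 12 h. In the table, then, the level was lowest at 6 h and 3.09-fold higher at 12 h than at 6 h, a step that the scanner put at 1.20-fold.

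Rab3d, the Rab3 of granules in secretory and blood cells, had scanner log2 levels of -1.11, -1.28 and -1.21 at 0 h, -2.57, -2.70 and -2.25 at 6 h and -2.15, -2.22 and -2.20 at 12 h. Both later groups lay below 0 h, and the fall was called at 6 h (log2 change -1.31 ± 0.10, adjusted p 9.07e-07) and just missed 2-fold at 12 h (-0.99). Its table ratios were 1.00, 0.965 and 1.05 at 0 h, 0.513, 0.499 and 0.511 at 6 h and 0.582, 0.617 and 0.630 at 12 h, a fall just under 2-fold at 6 h. The other Rab3d probe was called lower in both sources at both times, at -1.54 and -1.03 by the scanner and -1.36 and -1.38 by the table at 6 and 12 h. Rab13, a Rab of tight junctions in epithelia, had scanner log2 levels of -1.80, -1.65 and -1.74 at 0 h, -2.87, -2.94 and -2.67 at 6 h and -2.23, -2.36 and -2.38 at 12 h. It was lowest at 6 h (log2 change -1.10 ± 0.08, adjusted p 4.49e-07) and under 2-fold lower at 12 h. The table ratios of Rab13, 1.00, 1.05 and 0.995 at 0 h, 1.11, 0.970 and 0.996 at 6 h and 1.84, 1.76 and 1.66 at 12 h, did not share that fall. Normexp correction, quantile normalization and centring on the median of all genes each put the scanner fall of Rab13 under 2-fold, at -0.61, -0.93 and -0.96.

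Rab29, which brings the kinase Lrrk2 to membranes, was called lower at 6 h and not at 12 h. Scanner log2 levels of Rab29 were 3.50, 3.52 and 3.50 at 0 h, 2.25, 2.05 and 2.15 at 6 h and 3.93, 3.86 and 3.75 at 12 h. The arrays at 6 h lay below all others, and those at 12 h lay above those at 0 h. The log2 change was -1.36 ± 0.06 at 6 h (adjusted p 1.4e-08) and 1.70 ± 0.06 at 12 h against 6 h (adjusted p 1.33e-08). Table ratios of Rab29 were 1.00, 0.994 and 1.04 at 0 h, 0.933, 0.790 and 0.829 at 6 h and 1.11, 1.13 and 1.06 at 12 h, with the lowest values again at 6 h and no call. Rab27a, which tethers secretory lysosomes, had scanner log2 changes of -0.95 at 6 h and -0.34 at 12 h, and the table called it lower at 12 h (-1.03). Rab32 and Rab38, which supply melanosomes and other lysosome-related organelles, were called higher by the table only, Rab32 at 6 h (1.69) and both at 12 h, at 1.94 and 1.67, where the scanner gave 0.72 and 0.74. Rab37, known from mast cell granules, was called lower at both times by the table alone through its brightest probe. Its log2 changes were -1.66 and -1.98 by the table, where the scanner gave -0.42 and -0.36.

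The 5 members outside these groups included 1 shared riser and 1 shared faller. Rab12, which sends the transferrin receptor from recycling endosomes to lysosomes, had scanner log2 levels of 1.25, 1.22 and 1.20 at 0 h, 3.18, 3.09 and 3.19 at 6 h and 3.40, 3.46 and 3.39 at 12 h. The groups did not overlap. Rab12 was 3.81-fold higher at 6 h (log2 change 1.93 ± 0.04, adjusted p 6.73e-11) and 4.58-fold higher at 12 h. Table ratios of Rab12 were 1.00, 0.975 and 1.04 at 0 h, 2.69, 2.85 and 2.38 at 6 h and 2.67, 2.81 and 2.43 at 12 h. Both of its probes were called higher in both sources.

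Rab39, which in mouse dendritic cells acts at phagosomes in cross-presentation, fell out of detection at 6 h. In the scanner values the log2 levels of Rab39 were -1.90, -2.04 and -2.09 at 0 h, -5.12, -4.96 and -4.67 at 6 h and -3.44, -4.14 and -4.18 at 12 h. The probe was well above background on 3 of 3 arrays at 0 and 12 h and on 0 of 3 at 6 h. Changes that involve 6 h thus rest on signals not well above background. By these values Rab39 was 7.52-fold lower at 6 h than at 0 h (adjusted p 2.03e-07, limma). It was 3.76-fold lower at 12 h than at 0 h (log2 change -1.91 ± 0.18, adjusted p 4.82e-06). The table ratios of Rab39 were 1.00, 0.960 and 1.08 at 0 h, 0.121, 0.0868 and 0.0668 at 6 h and 0.182, 0.180 and 0.127 at 12 h, with every value at 6 and 12 h far below those at 0 h. Its scanner level at 12 h was 2-fold above that at 6 h, at the threshold. That call was lost without 6 h replicate 1 (log2 0.90), 6 h replicate 2 (0.98) or 12 h replicate 1 (0.76). Normexp correction left a log2 change of -0.66 for Rab39 at 12 h against 0 h. The remaining members were Rab23, a brake on Hedgehog signalling, Rab28 of ciliated cells and Rab40c, which joins a ubiquitin ligase. Their scanner log2 changes at 6 h were 0.57, -0.58 and -0.50. None of these was called at 6 or 12 h through its brightest probe.

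**Figure D2:**
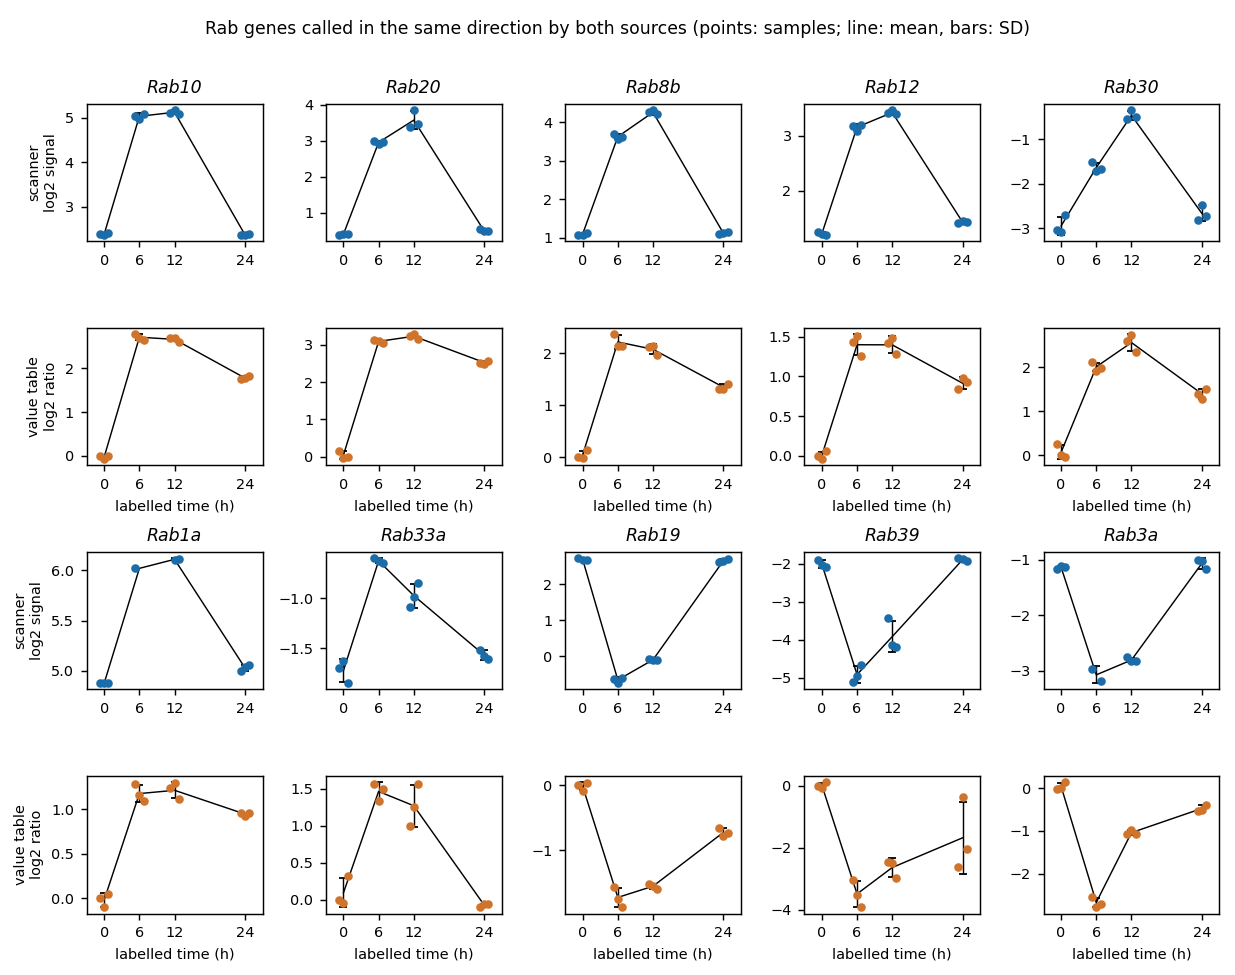
Values in every sample of the 10 Rab genes called in the same direction in both sources, with scanner log2 levels relative to the array's 75th percentile in the upper panel of each gene and log2 table ratios in the lower one, against labelled time. Points are samples, lines join the means of each time, bars are the SD, and the time axis is to scale. The 3 scanner points labelled 24 h lie near those at 0 h in each gene, while the table points labelled 24 h lie above those at 0 h in Rab10, Rab20, Rab30, Rab8b, Rab12 and Rab1a. Outlier spots leave 1 Rab1a point at 6 h, 2 at 12 h, and 2 Rab3a points at 6 h.

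**Figure D3:**
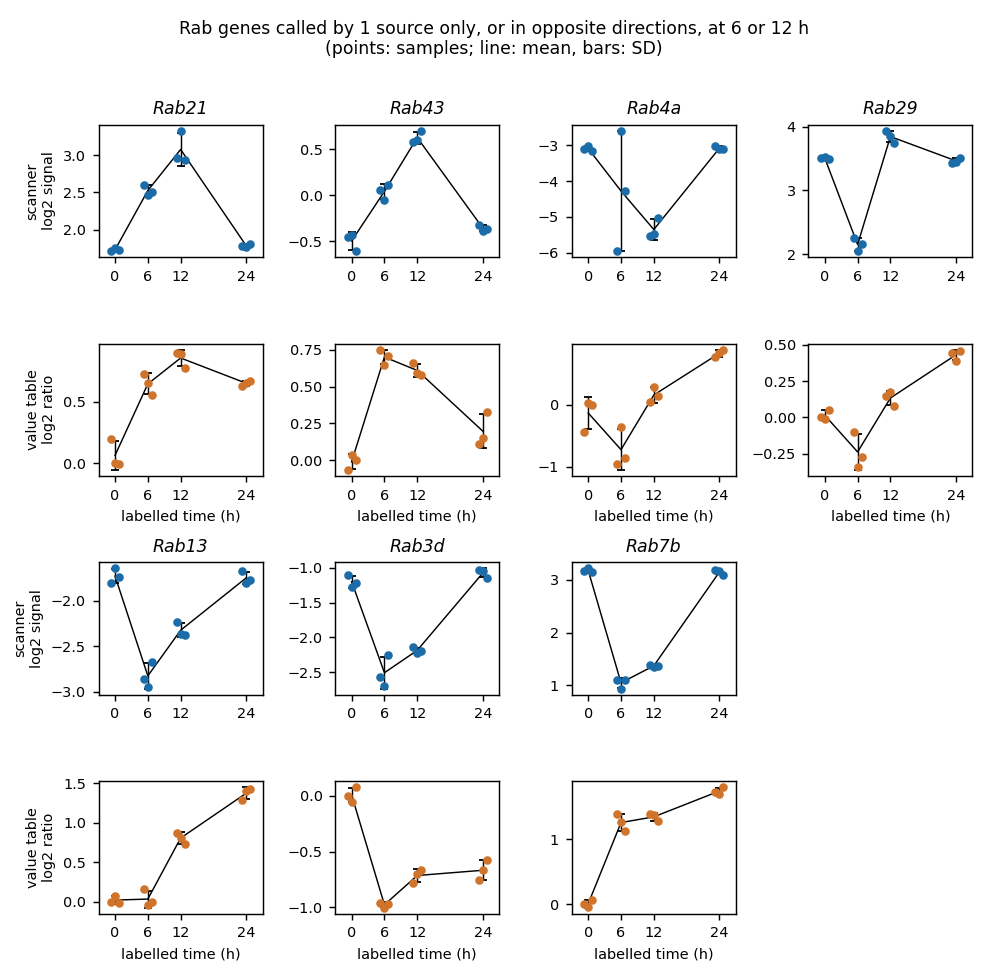
The same display for Rab7b and for the 6 members with the largest scanner changes among those called in the scanner values only at 6 or 12 h. Rab7b runs in opposite directions in the 2 sources, Rab29 dips at 6 h, and the 6 h points of Rab4a spread from -5.95 to -2.59 in the scanner values.

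At the samples labelled 24 h the sources gave different pictures of the Rab genes. By the scanner, 0 of 47 members were called at 24 h against 0 h, where 0.836% of all genes were called, 0.695% higher and 0.141% lower. With no minimum fold limma put 2 higher at an adjusted p under 0.05, against 2.29% of all genes, and 0 lower, against 1.29%. The 2 were Rab5c (log2 change 0.39 ± 0.04) and Rab12 (0.21 ± 0.04). Scanner changes of the members at 24 h ran from -0.08 to 0.52, with a median of 0.06 against 0.04 over all genes. By the value table, 12 members were called higher and 3 lower, against 13.3% and 13% of all genes, or 26.3% either way, and with no minimum fold 32 were higher and 9 lower, against 41.3% and 31.2%. In the 3 table columns labelled 24 h, Rab20 had ratios of 5.73, 5.59 and 5.93, against 1.12, 0.978 and 1.00 at 0 h. Rab10 had 3.36, 3.41 and 3.53 at 24 h, against 1.00, 0.951 and 1.00 at 0 h. The scanner log2 levels of Rab20 labelled 24 h were 0.54, 0.49 and 0.49, against 0.39, 0.42 and 0.42 at 0 h. These scanner groups lie close to each other, while every table value of Rab20 at 24 h lies far above those at 0 h.

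The other members called higher at 24 h by the table were Rab8b (1.30), Rab30 (1.33), Rab7 (1.25), Rab7b (1.73), Rab34 (2.42), Rab38 (1.62), Rab33b (1.41), Rab13 (1.35), Rab32 (1.11) and Rab11a (1.03), all as log2 changes. The ratios of Rab38 at 24 h were 1.89, 6.67 and 2.23, with replicate 2 far above the other 2, against 1.00, 0.876 and 1.11 at 0 h. Without that replicate its log2 change was 1.05. The ratios of Rab39 at 24 h spread widely, at 0.163, 0.776 and 0.242, against 1.00, 0.960 and 1.08 at 0 h, and without 24 h replicate 2 its change was -2.35 instead of -1.70. Rab39, Rab27a and Rab37 were called lower, at -1.70, -1.70 and -1.68. After quantile normalization of the table columns, the counts were 4 higher and 3 lower, with no share of all genes counted. Between 12 h and 6 h, the scanner called Rab29, Rab30 and Rab39 higher and the table called Rab3a, Rab34 and Rab38 higher, with no gene in common, against 6.98% and 5.79% of all genes called either way and 4.88% and 3.07% called higher. With no minimum fold the table had 19 higher and 2 lower at 12 h against 6 h, where 31.1% and 16.8% of all genes were.

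**Figure D4:**
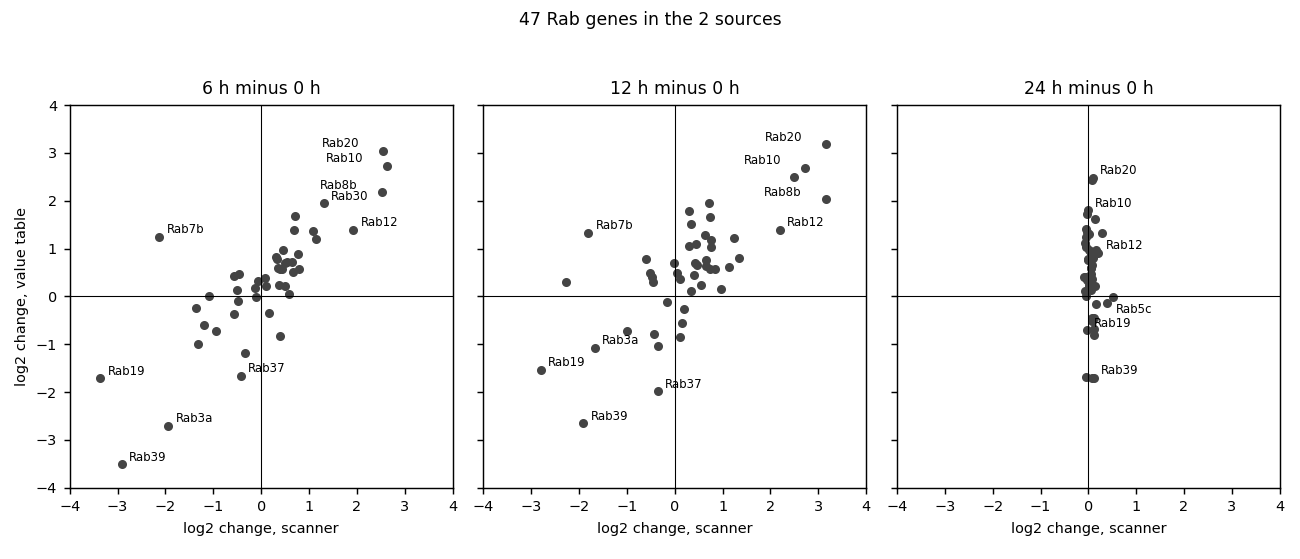
Log2 change of each of the 47 Rab genes in the value table (vertical axis) against the scanner values (horizontal axis) at 6, 12 and 24 h minus 0 h. At 6 and 12 h most points lie in the lower left and upper right quadrants with Rab7b in the upper left, and at 24 h the points form a vertical band, with scanner changes from -0.08 to 0.52 and table changes from -1.70 to 2.48.

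Several probes served 24 of the 47 genes, and no gene had probes called in opposite directions in either source at any comparison with 0 h. At 6 h in the scanner values, 6 of these 24 had some probes called and others not: Rab1a, Rab6a, Rab22a, Rab23, Rab34 and Rab37. Rab22a was the widest case. Its brightest probe had a scanner log2 change of -0.57 at 6 h, while the other 2 probes were called higher, the larger at 1.23. In the value table the Rab22a probes all had positive changes, from 0.42 to 1.43. Its direction therefore depends on the probe in the scanner values. The second Rab34 probe had 1.50 at 6 h by the scanner, against 0.40 for the brightest, and the second Rab37 probe had -1.25, against -0.42. Through a probe other than the brightest, 5 further genes were called in the same direction in both sources. They were Rab21 at 12 h, Rab3d and Rab22a at 6 and 12 h, and Rab6a and Rab37 at 6 h. Looking at more probes gives more occasions for a call, and the same count over all genes was not made. The log2 change of the second Rab6a probe was 1.14 in the scanner values and 1.08 in the table, and that of the second Rab37 probe was -2.49 in the table.

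**Figure D5:**
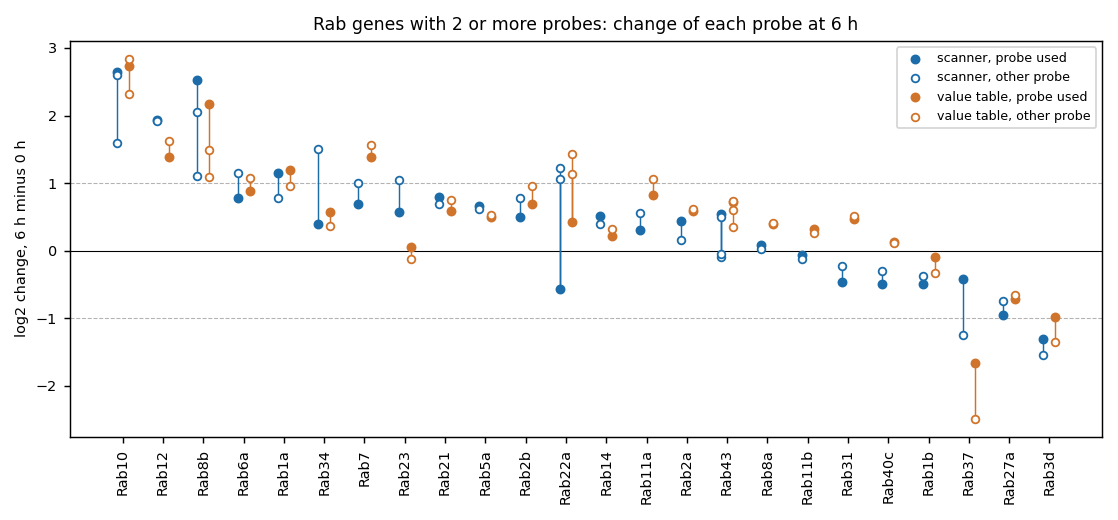
Scanner and table log2 changes at 6 h minus 0 h of every probe of the Rab genes with 2 or more probes well above background. The probes of Rab10, Rab8b and Rab12 lie together above 1, and the scanner probes of Rab22a lie on both sides of 0.

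Genes that load, switch off or carry Rab proteins were counted from textbook lists. Of 33 measured exchange factors, the scanner called 4 higher and 6 lower at 6 h, or 30.3% against 26.1% of all genes, and the value table called 5 higher and 6 lower, or 33.3% against 25%. Mon1b, a subunit of the Rab7 exchange factor, had scanner log2 levels of -2.46, -2.34 and -2.16 at 6 h, against -4.22, -4.28 and -3.55 at 0 h. The Rab5 exchange factor Rabgef1 had 1.10, 1.05 and 1.08 at 6 h, against -0.68, -0.80 and -0.85 at 0 h. Neither gene's groups overlapped, and their log2 changes at 6 h were 1.69 and 1.85 by the scanner and 1.15 and 1.60 by the table, all called. Sh3bp5, an exchange factor for Rab11, was also higher in both sources (1.97 and 1.98). Lower in both sources at 6 h were Rab3il1, an exchange factor of the Rab8 branch (-2.16 and -1.36), and Dennd1c, which acts on Rab35 (-1.21 and -1.15). Dennd2c was also lower, with mean scanner log2 levels of -4.36 at 0 h and -5.85 at 6 h, and at -2.87 by the table. Its probe was not well above background on any array at 6 h and was so on 2 of 3 at 0 h. The size of its scanner fall is therefore uncertain.

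Of 30 measured GTPase activating proteins, 3 were higher and 5 lower at 6 h by the scanner, or 26.7% against 26.1% of all genes, and 7 higher and 2 lower by the table, or 30% against 25%. Tbc1d16, an activating protein for Rab4a, had scanner log2 levels of -3.44, -3.63 and -3.44 at 6 h, against 0.02, 0.04 and -0.05 at 0 h. The groups stood far apart, with a log2 change of -3.51, and the table gave -1.56. Tbc1d10c fell in both sources too (-2.15 by the scanner and -1.76 by the table). Tbc1d10a, which acts on Rab27a and Rab35, rose in both sources, with log2 changes of 1.04 by the scanner and 1.49 by the table, Tbc1d12 with 1.58 and 1.44, and Tbc1d1, known from glucose transporter traffic in muscle, with 1.73 and 1.00. Tbc1d5, which acts on Rab7 with the retromer, was called lower by the scanner alone (-1.67 against -0.47 in the table).

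Among 51 measured effectors and tethers, 5 were higher and 9 lower at 6 h by the scanner, or 27.5% against 26.1% of all genes, and 5 higher and 6 lower by the table, or 21.6% against 25%. The Rab5 effectors Appl1 and Appl2 went opposite ways. Appl1 had scanner log2 levels of 3.39, 3.29 and 3.32 at 6 h, against 1.19, 1.17 and 1.20 at 0 h, while Appl2 had -1.78, -1.86 and -1.79 at 6 h, against 0.13, 0.11 and 0.02 at 0 h. In log2 changes this was 2.15 for Appl1 and -1.90 for Appl2 by the scanner, and 1.32 and -1.02 by the table, all called. Micall2, an effector of Rab8 and Rab13, had a log2 change of 2.76 in the scanner values, called higher, and of 0.46 in the table, where it was not called. Inpp5b, a phosphatase bound by Rab5, had 1.40 by the scanner, called higher, and 0.00 by the table. Sytl1, an effector of Rab27, and Mical1, an actin-oxidising enzyme bound by Rab1 and Rab8, fell in both sources, at -1.69 and -1.85 by the scanner and -2.01 and -1.85 by the table.

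Of 7 measured genes for the shared carriers and lipid anchors of all Rab proteins, the scanner called 0 higher and 1 lower at 6 h, against 10.2% and 15.9% of all genes. The value table called 0 at 6 h, where 25% of all genes were called. At 12 h the scanner called 3 lower, where 16.9% of all genes were, and the value table called 0, where 12.1% were. They were Gdi2, a GDP dissociation inhibitor, with a log2 change of -1.34, Rabggta, a subunit of the enzyme that adds the lipid anchor, with -1.26, and Rabac1, which helps return Rab proteins to membranes, with -1.01. In the table the log2 changes of these 3 genes at 12 h were -0.07, -0.11 and 0.79. At 12 h the scanner called 24.2% of the exchange factors, 36.7% of the activating proteins and 31.4% of the effectors and tethers, against 30.6% of all genes. The table called 24.2%, 40% and 23.5% of these lists, against 27.8%.

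RefSeq promoter windows were on hand for 40 of the 47 measured Rab genes. Rab windows had a median GC content of 62.3%, against 52.7% over all 32841 windows. The TATA box TATAAA was matched in 1 of 40 Rab genes, Rab7, against 15.7% of all genes with a window. The NF-kB consensus was matched in 3 Rab genes, Rab11a, Rab15 and Rab28, or 7.5% against 9.55% of all genes, and the AP-1 element TGANTCA in Rab15 and Rab34, or 5% against 8.98%. The cyclic AMP response element TGACGTCA was matched in Rab5a and the sterol response element TCACNCCAC in Rab3a, 2.5% each, against 2.03% and 1.44% of all genes. Of the 10 genes called alike in both sources, none of those with a window matched the NF-kB or AP-1 letters in these 300 bases. All motifs were searched on both strands and a match describes letters only.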

How the data were processed

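RNA of 12 samples, 3 in each of 4 groups, was measured on single-colour Agilent arrays. The authors deposited scanner intensity values made with Agilent Feature Extraction 9.1.3.1, per the file headers, and the processed signal used here is background-subtracted, with no scaling between arrays. They also deposited linear ratios in a value file, in which each probe's median over the 0 h columns is 1 and the lowest value is 0.01. How its columns were scaled is not stated there. Column medians of all probes were 1 at 0 h, 1.025, 1.103 and 1.147 at 6 h, 1.334, 1.143 and 1.151 at 12 h and 1.291, 0.9426 and 1.005 at 24 h. No genome build is named for the array design.

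Control spots and outlier spots were left out, 732 outlier spots in all, of which 628 were on 6 h replicate 2. Log2 processed signals were set relative to each array's 75th percentile. Of 41174 probes, 23506 were well above background on all arrays of a group, and these made up 18417 genes, each taken by its brightest probe. Accessions of 22951 probes were named through RefSeq GRCm38.p6. limma 3.58.1 in R 4.3.3 fitted 4 group means on 12 samples with 8 residual degrees of freedom, once for each source. P-values were adjusted by Benjamini-Hochberg over all genes, and a call needs an adjusted p under 0.05 and a 2-fold change. The p-values measure the spread between 3 samples a group, and the number of arrays limits their precision. The procedure was tested on simulated data.

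The members, lists and rules were chosen with earlier results of these data known. Values in every sample are given for members called alike in both sources at 6 or 12 h, for the 6 other scanner calls with the largest change, for members called in opposite directions, and for 3 uncalled members with the highest signal at 0 h. From each list of regulators, up to 3 genes that rose the most and 3 that fell the most by the scanner are named. Sequences are RefSeq promoter windows of GRCm38.p6.

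Alternatives were normexp background correction with an offset of 50, quantile normalization, centring on the median of all genes, a looser and a stricter filter on dim probes, the mean over a gene's probes, the slide or the replicate number as a block, values within a slide, no minimum fold, and each replicate left out. The normexp alternative used the median spot signal, since the scanner files hold no mean signal column. Leaving out the samples labelled 24 h was chosen after seeing the data. The labels do not say what a shared replicate number stands for, and the numbers were not found to pair the samples.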

Additional observations from a re-analysis of the deposited data

How the results depend on the processing

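No alternative turned the direction of a call among the 20 named members, those given with values in every sample. For the other called members, direction was checked only with each replicate left out, and none turned. Normexp background correction brought the Rab genes lower at 12 h by the scanner to 2, against 5, and those higher at 12 h against 6 h to 1, against 3. Requiring every array to be well above background left 43 members, of which 2 were lower at 12 h. With the slide as a block, 1 member was lower at 12 h against 6 h, where the count was otherwise 0. Quantile normalization of the value table gave 4 members higher at 6 h, 6 at 12 h, 4 at 24 h and 1 at 12 h against 6 h, in place of 10, 16, 12 and 3. The cause of these shifts was not tested, and the share of all genes called under each of these alternatives was not counted.

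With no minimum fold, the scanner counts of Rab genes higher and lower were 26 and 15 at 6 h, 29 and 12 at 12 h, and 25 and 2 at 12 h against 6 h, with 2 higher at 24 h. In the value table they were 28 and 12 at 6 h, 33 and 10 at 12 h, 32 and 9 at 24 h, and 19 and 2 at 12 h against 6 h. Leaving out each replicate in turn gave 6 to 7 higher and 7 to 8 lower at 6 h by the scanner, 5 to 6 lower at 12 h, 2 to 3 higher and 0 to 1 lower at 12 h against 6 h. The 1 lower call came without 6 h replicate 1 and was Rab4a, with a log2 change of -1.92.

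The replicate number as a block left every count of calls as it was, 7 higher and 7 lower at 6 h and 8 and 5 at 12 h by the scanner, and changed no call of a named member. Same-numbered samples deviated together with correlations from -0.0854 to 0.155 in the scanner values and from -0.0771 to 0.226 in the table, over 0.1 in 2 of 18 and 1 of 18 pairs. In the scanner values, quantile normalization put the median log2 change of the Rab genes at 0.17 at 6 h and 0.23 at 12 h, centring on the median of all genes at 0.47 and 0.47, and the slide as a block at 0.53 at 12 h, in place of 0.33 and 0.34. In the table, quantile normalization gave 0.30 and 0.26, and median subtraction 0.29 and 0.39, in place of 0.42 and 0.62. In all, 24 medians moved by more than the spread between samples and 136 did not. Table calls close to 2-fold were lost without 1 sample: Rab27a at 12 h without 0 h or 12 h replicate 3 (-0.97 each), Rab6a at 12 h without 0 h replicate 2 (0.97) or 12 h replicates 1 or 2 (0.99 and 1.00), Rab9 at 12 h without 12 h replicate 2 (0.99) and Rab11a at 24 h without 0 h replicate 2 (0.99). At 12 h against 6 h, the table's call of Rab38 was lost without 12 h replicate 2 or 3 (1.28 and 1.29), and the scanner's call of Rab39 without 12 h replicate 1 or 6 h replicate 1 or 2 (0.76, 0.90 and 0.98). Over all alternatives, 296 counts stayed within 1.5 times and 24 did not. Refits without 1 replicate made up most of the 296, and 15 of the 24 came from dropping the minimum fold, a change of rule. For the 20 named members, single-gene results kept their side of the threshold in 3077 cases, lost a call in 38 and gained one in 70. Dropping the minimum fold gave 55 of those 70. The 3077 cases include refits without a sample outside both compared groups, where the fold cannot change. They also include members uncalled both before and after. The changes of Rab4a and Rab39 are less certain where their dim probes were not well above background.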
